A study of Homo sapiens with 6 samples.

Results

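The E2F transcription factors and the RB, or pocket, proteins that hold them in check were examined as 10 genes, chosen by name: E2F1, E2F2, E2F3, E2F4, E2F5, E2F7, E2F8, RB1, RBL1 and RBL2. All 10 were among the 22681 genes of the deposited count table, and all 10 were among the 14356 genes with enough reads to be tested. Read counts came from TPC-1-Len, a subline of the human papillary thyroid carcinoma line TPC-1 that is resistant to lenvatinib, an inhibitor of several receptor tyrosine kinases, among them the VEGF receptors and RET. One group had been transfected with a non-targeting hairpin (shNC, 3 cultures) and the other with a hairpin against the type I keratin gene KRT15 (shKRT15, 3 cultures), to find genes that depend on KRT15. Both groups came from the same resistant line and were grown in 10 µM lenvatinib, with no parental or drug-free culture beside them, and 1 hairpin sequence stands for the knockdown. The labels give neither the time between transfection and harvest nor the share of cells that took up the hairpin. The cultures are described as biological replicates, but separate transfections are not stated, so each p-value below reflects only the spread among these 6 cultures.

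E2F proteins bind DNA as dimers with a DP partner and set the transcription of genes for DNA replication and cell division. E2F1, E2F2 and E2F3 are the activators, which RB1 binds and silences until cyclin-dependent kinases phosphorylate it. E2F4 and E2F5 are the canonical repressors, which work mainly with the pocket proteins p107 (RBL1) and p130 (RBL2), the latter as part of the DREAM complex of resting cells. E2F7 and E2F8 are atypical repressors that bind DNA without a DP partner, do not bind pocket proteins and limit E2F1 activity in S phase. Several members of these families are themselves transcribed under E2F control.

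Total counts per library ran from 36286059 to 36808695 in shNC and from 39868231 to 41343780 in shKRT15. KRT15 itself stood at 28.7, 31.9 and 36.2 CPM (reads scaled to library size, with TMM factors) in the 3 shNC libraries and at 25, 24.3 and 24.9 CPM in the 3 shKRT15 libraries. Its groups did not overlap, and it fell by 0.38 ± 0.10 (SE) on the log2 scale with a Benjamini-Hochberg adjusted p of 0.00465 in edgeR's quasi-likelihood test; an exact two-sided permutation test gave p = 0.1, the smallest that 3 against 3 allows. Of 8 thyroid follicular markers, PAX8 (375 CPM in shNC), FOXE1, HHEX and TG had enough reads to test and none passed, NKX2-1 and TSHR held 1 read each in shNC and 0 in shKRT15, and SLC5A5 had no row. The 6 epithelial markers summed to 819 to 904 CPM in shNC and 598 to 623 CPM in shKRT15, without overlap. Of the 4 with enough reads to test, KRT18 was called higher (116 and 215 CPM) and CLDN1 lower (705 and 358 CPM), and KRT8 and KRT7 did not pass, while EPCAM held 2 reads in shNC and 6 in shKRT15, and CDH1 4 and 1. Of 6 fibroblast markers, summing to 17.7 to 23.3 CPM in shNC and 7.85 to 8.57 CPM in shKRT15, LUM and COL1A1 were called lower and PDGFRB higher, and COL1A2 held 13 reads in shNC and 0 in shKRT15. Of 6 leukocyte markers, CD68 made up nearly all of a sum of 87.8 to 90.4 CPM in shNC and 52.6 to 69.6 CPM in shKRT15, and PTPRC held 43 reads in shNC and 0 in shKRT15. The 2 leukocyte markers with enough reads to test were both called lower. Endothelial markers summed to at most 1.78 CPM in any library. The part of such cells in the results below was not tested.

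Between the groups, 5 of the 10 genes were called higher in shKRT15 (E2F1, E2F2, E2F8, RBL1 and RBL2), 2 were called lower (E2F5 and E2F7) and 3 did not pass (E2F3, E2F4 and RB1). Calls were made at 0.05 on the p adjusted over all genes tested. Large parts of the transcriptome differed: 45.0% of all genes tested were called, 22.1% as higher and 23.0% as lower, so 7 of 10 called is read against that share. The 3 shNC and 3 shKRT15 values of 7 of the 10 genes did not overlap, against 54.0% of all genes tested. The median log2 fold change was 0.39 over the 10 genes and -0.00 over all genes tested. In bulk RNA a lower level can mean fewer cells with the transcript or less of it in each cell, and these cannot be told apart.

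**Figure D1:**
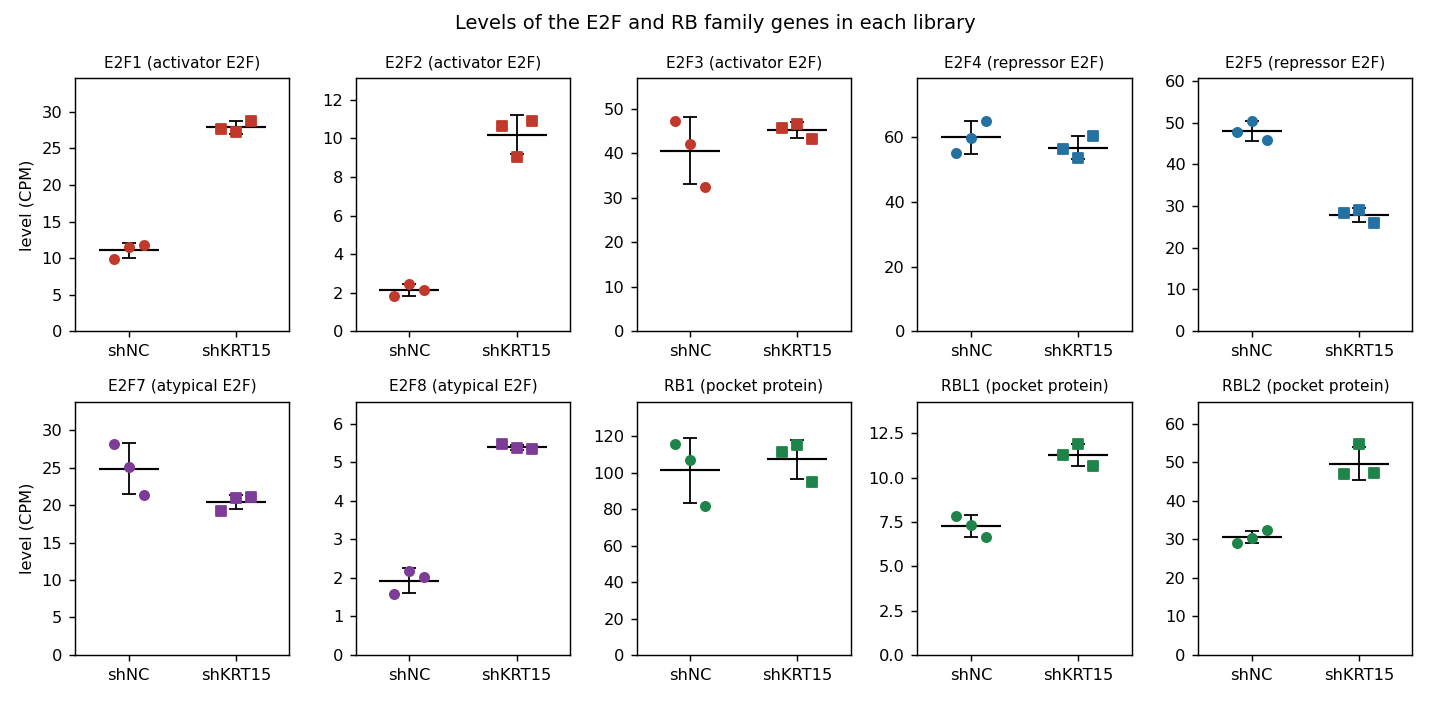
Level of each E2F and RB family gene in CPM on a linear axis from 0, with 1 point per library (circles shNC, squares shKRT15), the mean as a line and the SD as error bars (n = 3). E2F1, E2F2, E2F8, RBL1 and RBL2 sit higher in all 3 shKRT15 libraries, E2F5 and E2F7 sit lower, and E2F3, E2F4 and RB1 overlap.

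Promoter sequence is shown first for the 4 genes whose window held an E2F motif, since E2F genes are known to be transcribed under E2F control. The motif was any of TTTCGCGC, TTTGGCGC, TTTCCCGC and TTTGCCGC on either strand, searched from 250 bases before to 50 bases after the start site in RefSeq promoters (GRCh38.p14). It was found in 1164 of 35116 such windows (3.31%). Each line gives the 80 bases that end just before the start site, 5′ to 3′ on the gene's own strand, with the motif in capitals.
E2F1: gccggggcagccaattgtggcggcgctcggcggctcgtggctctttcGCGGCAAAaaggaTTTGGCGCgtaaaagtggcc
E2F2: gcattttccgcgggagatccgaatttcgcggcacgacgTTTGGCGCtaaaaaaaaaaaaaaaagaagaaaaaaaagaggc
E2F3: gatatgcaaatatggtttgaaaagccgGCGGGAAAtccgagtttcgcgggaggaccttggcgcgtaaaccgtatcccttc
RBL1: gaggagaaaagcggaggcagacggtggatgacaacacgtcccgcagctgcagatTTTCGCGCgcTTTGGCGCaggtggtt
These stretches lie at chr20:33686386-33686465 (minus strand) for E2F1, chr1:23531234-23531313 (minus) for E2F2, chr6:20401799-20401878 (plus) for E2F3 and chr20:37095998-37096077 (minus) for RBL1.

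The 3 activators all held the motif. In E2F1 it began 33 bases (as its reverse complement GCGGCAAA) and 20 bases before the start site, in E2F2 42 bases before it, and in E2F3 53 bases before it, as the reverse complement GCGGGAAA. RBL1 carried a tandem pair beginning 26 and 16 bases before its start, with no shared base. The windows of E2F4, E2F7 and RBL2 (2 start sites) and a further window of E2F3 held none of these letters, nor did that of RB1, which lies 172724 bases inside the gene. The RBL2 start sites lie 494 and 1642 bases inside the gene, and the further E2F3 site 1708 bases inside. Those windows did not reach the GENCODE start of either gene. The promoter table matched 8 of the 10 genes, all but E2F5 and E2F8. E2F1, E2F2 and RBL1 were among the genes called higher and E2F3 was not, so the motif was present on both sides of the call. A match is a description of the letters and not a binding site.

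The activators E2F1 and E2F2 were 2.52 and 4.75 times as abundant in shKRT15 as in shNC, while E2F3, the most abundant of the 3 in shNC, did not pass the test. E2F1, on chromosome 20 (GRCh38, 33675683 to 33686404, minus strand, GENCODE 29), is the activator most often linked to S phase entry. It stood at 9.91, 11.5 and 11.8 CPM in shNC and at 27.6, 27.2 and 28.8 CPM in shKRT15. The lowest shKRT15 library therefore lay above every shNC library. Mean E2F1 levels were 11 ± 0.992 CPM (SD, n = 3) and 27.9 ± 0.847 CPM (SD, n = 3), a log2 fold change of 1.33 ± 0.11 (SE) with a 95% interval of 1.11 to 1.56 and an adjusted p of 2.25e-08 in edgeR's quasi-likelihood test.

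E2F2 (chromosome 1, 23506430 to 23531220, minus strand), a close relative of E2F1, had the largest log2 fold change of the 10. Its levels were 1.85, 2.44 and 2.14 CPM in shNC, from 67, 87 and 76 reads, and 10.6, 9.04 and 10.9 CPM in shKRT15, from 436, 388 and 442 reads. E2F2 was thus low in every shNC library and higher in all 3 shKRT15 libraries. This gave a log2 fold change of 2.25 ± 0.17 (SE), with an interval of 1.88 to 2.61 and an adjusted p of 1.51e-08.

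E2F3 (chromosome 6, 20401906 to 20493715, plus strand) encodes both an activator and a shorter form, which gene counts do not separate. Its levels were 47.4, 42.2 and 32.4 CPM in shNC and 45.7, 46.6 and 43.3 CPM in shKRT15. The groups overlapped, with shNC replicate 3 well below the other 5 libraries. E2F3 had a log2 fold change of 0.15 ± 0.11 (SE), its interval of -0.09 to 0.39 held 0, and the adjusted p was 0.293. Without shNC replicate 3 the log2 fold change of E2F3 was 0.01, and its adjusted p was at least 0.0516 in every setting tried.

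Of the canonical repressors, E2F5 fell to 0.579 times its shNC level and E2F4 did not pass. E2F5 lies on chromosome 8 (85177225 to 85217158, plus strand). It stood at 47.7, 50.5 and 45.8 CPM in shNC and at 28.3, 29.1 and 25.9 CPM in shKRT15. All 3 shKRT15 libraries lay far below the lowest shNC library. The log2 fold change was -0.79 ± 0.09 (SE), with an interval of -0.98 to -0.60 and an adjusted p of 1.53e-06. In GENCODE 29, 969 exon bases of E2F5 are shared with RBIS on the opposite strand, and without a known strand setting reads from these bases could be counted for either gene. RBIS was level between the groups, at 102 CPM in each (adjusted p = 0.936).

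E2F4 (chromosome 16, 67192169 to 67198918, plus strand), the main repressor of resting cells, stood at 55.1, 59.7 and 65.2 CPM in shNC and at 56.4, 53.6 and 60.5 CPM in shKRT15. The ranges overlapped broadly. E2F4 had a log2 fold change of -0.08 ± 0.09 (SE), with an interval of -0.26 to 0.10 and an adjusted p of 0.492. When the trend of each library with GC content and transcript length was removed, E2F4 passed as lower, at -0.25 with an adjusted p of 0.0065.

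The atypical repressors moved in opposite directions. E2F8 (chromosome 11, 19224063 to 19241620, minus strand) was scarce in shNC, at 1.57, 2.19 and 2.03 CPM from 57, 78 and 72 reads. It reached 5.47, 5.38 and 5.34 CPM in shKRT15, from 224, 231 and 216 reads. The shKRT15 values were close together and all above the shNC values. This was a log2 fold change of 1.48 ± 0.20 (SE), with an interval of 1.05 to 1.91 and an adjusted p of 1.52e-05.

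E2F7 (chromosome 12, 77021247 to 77065580, minus strand), which can pair with E2F8, stood at 28.1, 25.1 and 21.4 CPM in shNC and at 19.3, 20.9 and 21.1 CPM in shKRT15. The groups were separated only by the gap between 21.4 and 21.1 CPM. The log2 fold change was -0.28 ± 0.11 (SE) with an adjusted p of 0.0446, near the threshold. The call was lost with total-count scaling (adjusted p = 0.12), with the replicate number as a block together with removal of the GC and length trend (-0.24, adjusted p = 0.0642), and on leaving out any 1 of 5 libraries, with adjusted p-values from 0.0691 to 0.24; leaving out shNC replicate 3, the lowest of its group, gave -0.38 and 0.00396.

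**Figure D2:**
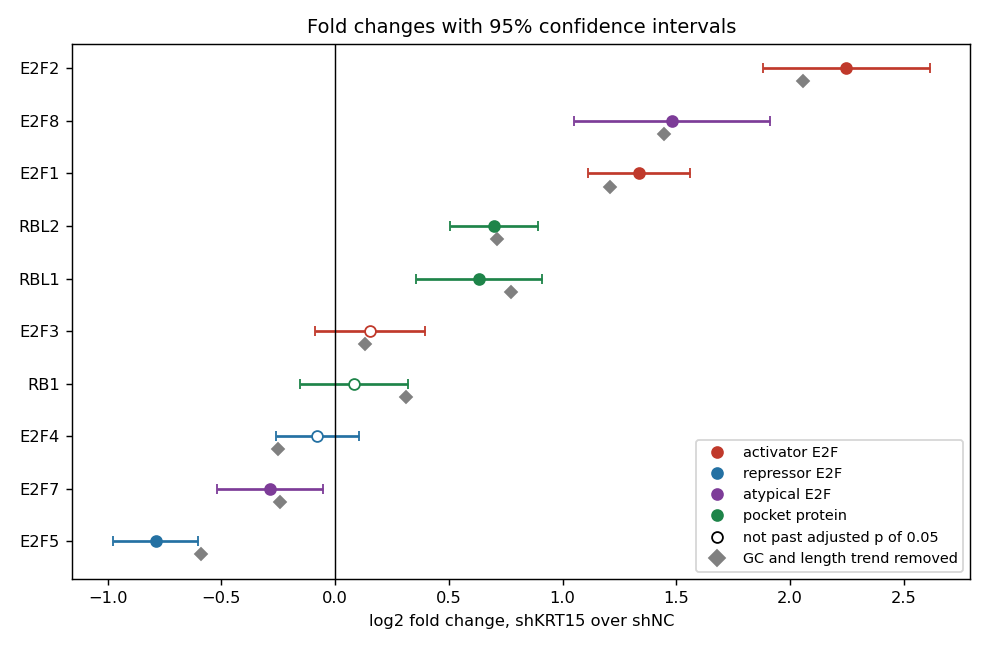
Log2 fold change of shKRT15 over shNC for each gene with its 95% interval from edgeR, coloured by role, with open circles for genes not called and grey diamonds for the value after the GC and length trend was removed. E2F2 (2.25) and E2F5 (-0.79) form the ends, and the intervals of E2F3, RB1 and E2F4 cross 0.

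Among the pocket proteins, RBL1 and RBL2 rose and RB1 did not pass the test. RBL2 (chromosome 16, 53433977 to 53491649, plus strand), the pocket protein of resting cells, stood at 29.1, 30.3 and 32.3 CPM in shNC. Its shKRT15 levels were 47.0, 54.6 and 47.2 CPM. Each shKRT15 library was above every shNC library. The log2 fold change was 0.70 ± 0.09 (SE), with an interval of 0.50 to 0.89 and an adjusted p of 9.35e-06. RBL2 shares 610 exon bases with AKTIP on the opposite strand, and AKTIP was lower in shKRT15 (log2 fold change -0.39, adjusted p = 0.00507).

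RBL1 (chromosome 20, 36996349 to 37095995, minus strand), the pocket protein more typical of cycling cells, was the least abundant of the 3. It stood at 7.84, 7.30 and 6.63 CPM in shNC and at 11.3, 11.9 and 10.6 CPM in shKRT15, without overlap. Its log2 fold change was 0.63 ± 0.13 (SE), with an interval of 0.36 to 0.91 and an adjusted p of 0.000792.

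RB1 (chromosome 13, 48303726 to 48599436, plus strand), the retinoblastoma tumour suppressor, stood at 116, 107 and 81.6 CPM in shNC. In shKRT15 it stood at 112, 115 and 95.2 CPM. The groups overlapped, and replicate 3 was the lowest library of each. The log2 fold change was 0.08 ± 0.11 (SE), with an interval of -0.16 to 0.32 and an adjusted p of 0.584. After removal of the GC and length trend RB1 passed as higher, at 0.31 with an adjusted p of 0.00312, and without shNC replicate 3 it stood at -0.054. Replicate 3 of both groups was low for long, AT-rich genes in general: the median of 1230 such genes (GC content in the lowest 25% and length in the highest 25% of tested genes) lay -0.12 from the group mean on the log2 scale in shNC replicate 3 and -0.11 in shKRT15 replicate 3. The same genes had a median log2 fold change of -0.21, and RB1 has a GC content of 37.3% and 6452 exon bases.

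Levels can be compared between genes only per length, so CPM was divided by the exon length of each gene (RPKM). In shNC the order of mean RPKM from the top was E2F4 (16.8), RB1 (15.7), E2F5 (8.10), E2F3 (7.87), E2F1 (4.41), RBL2 (4.18), E2F7 (3.94), RBL1 (1.22), E2F8 (0.467) and E2F2 (0.393). The library ranges overlapped between E2F4 and RB1, E2F5 and E2F3, E2F1 and RBL2, RBL2 and E2F7, and E2F8 and E2F2. In shKRT15 the order was RB1 (16.6), E2F4 (15.9), E2F1 (11.1), E2F3 (8.76), RBL2 (6.78), E2F5 (4.69), E2F7 (3.24), RBL1 (1.89), E2F2 (1.87) and E2F8 (1.30). There only RB1 and E2F4, and RBL1 and E2F2, had overlapping ranges. E2F1 thus stood below E2F3 in every shNC library and above it in every shKRT15 library, and E2F5 stood above RBL2 in every shNC library and below it in every shKRT15 library. Other places in the order depended on the length used. With the longest transcript as length (4906 bases for RBL2, against 7320 union exon bases) RBL2 stood above E2F1 in shNC. In shKRT15 its range then overlapped those of E2F1 and E2F3.

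Summed per length, activator levels were higher and canonical repressor levels lower in shKRT15, with no test made of sums over chosen genes. E2F1, E2F2 and E2F3 together held 13.5, 13.2 and 11.4 RPKM in shNC and 21.8, 21.5 and 21.9 RPKM in shKRT15. E2F4 and E2F5 together held 23.4, 25.2 and 25.9 RPKM in shNC and 20.5, 19.9 and 21.3 RPKM in shKRT15. Neither sum overlapped between the groups. Against E2F4 and E2F5 alone, the activator sum was lower in every shNC library and higher in every shKRT15 library. That crossing depended on the length used. With the longest transcript as length (2615 bases for E2F4, against 3582 union exon bases) the activator sum was the lower in shKRT15 too. The ratio of activators to repressors was taken with E2F7 and E2F8 added to the repressors. It was 0.434 ± 0.0485 (SD, n = 3) in shNC and 0.867 ± 0.0192 (SD, n = 3) in shKRT15. This ratio was below 1 in all 6 libraries.

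The share of activators in all 7 E2F genes was 32.3, 30.7 and 27.6% in shNC and 46.7, 46.8 and 45.8% in shKRT15. E2F1 and E2F2 alone made up 11.5 ± 1.06% (SD, n = 3) and 27.7 ± 0.549% (SD, n = 3), while E2F3 did not pass the test above. E2F7 and E2F8 together stood at 4.41 ± 0.488 and 4.54 ± 0.142 RPKM (SD, n = 3) with overlapping libraries. Their make-up differed, as the ratio of E2F8 to E2F7 was 0.0852, 0.133 and 0.145 in shNC and 0.432, 0.392 and 0.386 in shKRT15. RB1 outnumbered RBL1 and RBL2 together by a factor of 2.92 ± 0.569 (SD, n = 3) in shNC and 1.92 ± 0.146 (SD, n = 3) in shKRT15, without overlap.

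E2F6, a further repressor outside the 10 genes that was chosen after its values were seen, stood at 24.8, 25.4 and 24.6 CPM in shNC and at 16.1, 18.0 and 17.0 CPM in shKRT15. Its log2 fold change was -0.55 ± 0.10 (SE), with an adjusted p of 0.000214. Counted with the repressors, it brought the ratio of activators to repressors to 0.359 in shNC and 0.743 in shKRT15.

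**Figure D3:**
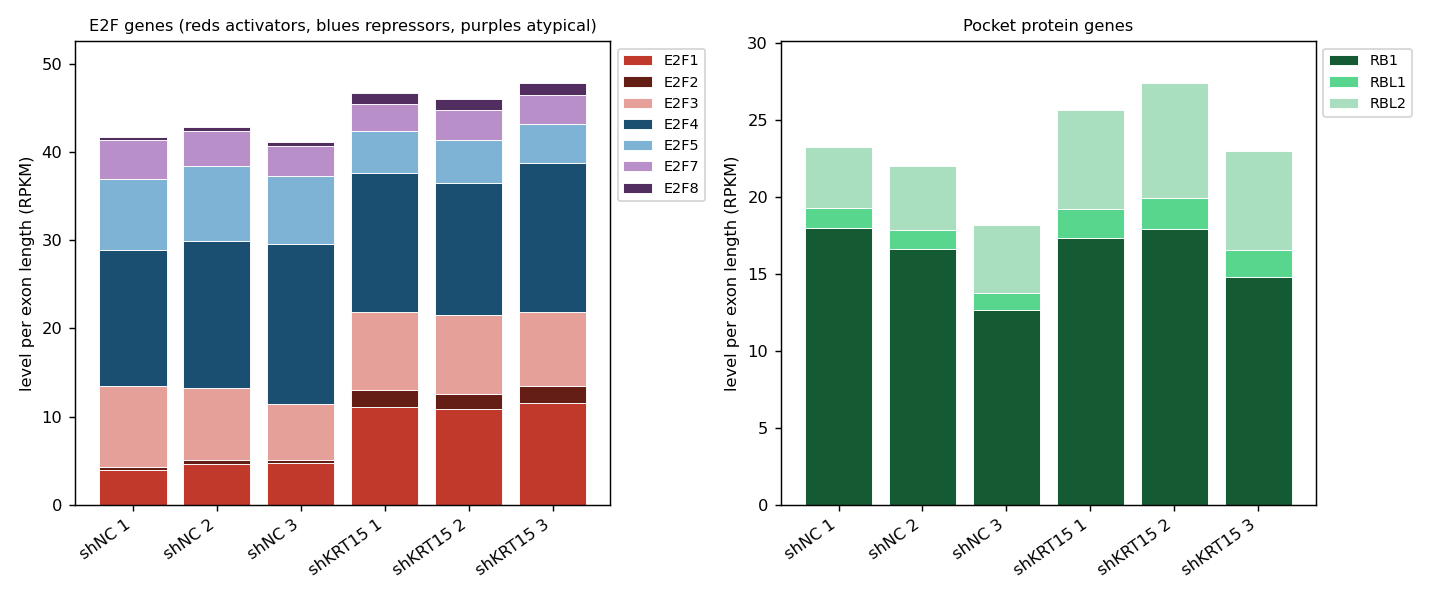
Stacked RPKM of the 7 E2F genes (left) and the 3 pocket protein genes (right) in each of the 6 libraries. The activator block, at the bottom in reds, is 11.4 to 13.5 RPKM in shNC and 21.5 to 21.9 RPKM in shKRT15, and RBL1 and RBL2 take a larger part of the pocket protein bar in shKRT15.

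The genes that work with the E2F and RB families were then read from lists of their partners, regulators and targets. Each count below is to be read against the 45.0% called among all genes tested, 22.1% higher and 23.0% lower. The DP partners were both higher in shKRT15. TFDP1, the main partner, stood at 110, 110 and 100 CPM in shNC and at 189, 180 and 184 CPM in shKRT15, without overlap. Its log2 fold change was 0.79 ± 0.07 (SE) with an adjusted p of 8.94e-08. TFDP2 rose by 0.29 ± 0.08 (SE; adjusted p = 0.00451), a call lost when the GC and length trend was removed (0.17, adjusted p = 0.0845). TFDP3 had no row.

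Of 8 genes of the DREAM complex and of the MuvB core it shares with cell-cycle activators, 4 were higher, 1 lower and 3 did not pass, or 62.5% called against 45.0% of all genes tested. The activating partners of MuvB moved most: MYBL2 stood at 56.1 ± 2.69 and 160 ± 12.4 CPM (SD, n = 3; log2 fold change 1.51, adjusted p = 1.18e-10) and FOXM1 at 52.7 ± 3.27 and 152 ± 15.6 CPM (SD, n = 3; 1.53, 2.98e-10). The core subunits split, with RBBP4 (0.66, adjusted p = 7.93e-07) and LIN9 (0.41, 0.0181) higher and LIN37 (-0.15), LIN52 (-0.05) and LIN54 (-0.11) short of the threshold. LIN9 lost its call without shKRT15 replicate 2 (adjusted p = 0.124). DYRK1A, the kinase that promotes DREAM assembly, was lower (-0.23, adjusted p = 0.0323), which was lost with total-count scaling (adjusted p = 0.115), with the GC and length trend removed (0.179) and on leaving out any 1 of 4 libraries, shNC replicates 1 and 2 and shKRT15 replicates 1 and 3 (0.104 to 0.134).

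Cyclins and kinases that phosphorylate pocket proteins gave 5 higher, 2 lower and 2 not passing of 9. Those of S phase rose, CCNA2 from 68.4 ± 3.14 to 128 ± 3.91 CPM (SD, n = 3; log2 fold change 0.91, adjusted p = 2.25e-08) and CCNE2 from 23.5 ± 2.49 to 46.4 ± 3.36 CPM (SD, n = 3; 0.99, 4.38e-07). CCNE1, the other cyclin E gene, overlapped between the groups (-0.07 ± 0.14 (SE), adjusted p = 0.711). Among the genes for the earlier cyclin D kinases, CDK6 (-0.65 ± 0.14 (SE), adjusted p = 0.00128) and CCND1 (-0.27 ± 0.07 (SE), 0.00456) fell. CCND3 (0.38 ± 0.08 (SE), adjusted p = 0.000622), CDK4 (0.24 ± 0.07 (SE), 0.00964) and CDK2 (0.34 ± 0.08 (SE), 0.00304) rose. With the GC and length trend removed CDK4 and CDK2 no longer passed (adjusted p = 0.156 and 0.0545). CCND2 was near absent, at 44 reads over the shNC libraries and 26 over the shKRT15 libraries, and did not pass (adjusted p = 0.199).

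Among 7 inhibitors of these kinases, 5 were lower, 1 was higher and 1 did not pass. CDKN2B, which encodes the CDK4 and CDK6 inhibitor p15, stood at 108, 101 and 102 CPM in shNC and at 22.3, 21.7 and 24.1 CPM in shKRT15. The highest shKRT15 value, 24.1 CPM, lay far below the lowest shNC value, and the log2 fold change was -2.20 ± 0.08 (SE) with an adjusted p of 1.33e-12. CDKN2C, which encodes the related inhibitor p18, went the other way, from 26, 24.4 and 22.9 CPM to 78.3, 73.5 and 78.7 CPM. Its log2 fold change was 1.65 ± 0.09 (SE; adjusted p = 1.10e-10). CDKN2D (-0.52, adjusted p = 0.00508), CDKN1C (-0.61, 0.0125), CDKN2A (-0.23, 0.0173) and CDKN1B (-0.21, 0.0299) were lower, and CDKN1A, which encodes p21, did not pass (-0.07, 0.414). CDKN1A passed as lower after the GC and length trend was removed (-0.21, adjusted p = 0.00624). CDKN1C lost its call without shNC replicate 2 (adjusted p = 0.0602). CDKN2A lost its call with total-count scaling (0.058) and without shKRT15 replicate 1 (0.0894) or 2 (0.0577). For CDKN1B it was lost with total-count scaling (adjusted p = 0.113) and when low counts were left unfiltered (0.0525). The same happened on leaving out shNC replicate 1 (0.0914), shNC replicate 2 (0.0535), shKRT15 replicate 1 (0.16) or shKRT15 replicate 3 (0.075).

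Chromatin regulators that pocket proteins recruit gave 8 higher, 2 lower and 1 not passing of 11. DNMT1, the maintenance DNA methyltransferase, rose from 73.8 ± 6.90 to 154 ± 14.1 CPM (SD, n = 3; log2 fold change 1.06, adjusted p = 3.00e-08). SMARCA4, a remodelling ATPase (0.70, adjusted p = 4.87e-07), SUV39H1, a histone methyltransferase (0.88, 3.83e-06) and RBBP7, a histone-binding subunit (0.52, 3.40e-05) were also higher. HDAC2 (-0.23, adjusted p = 0.015) and SIN3B (-0.31, 0.00354), subunits of a deacetylase complex, were lower, and KDM5A, a histone demethylase first found as an RB1-binding protein, did not pass (-0.12, 0.427). HDAC2 lost its call with total-count scaling (adjusted p = 0.0783), with the GC and length trend removed (0.459) and on leaving out shNC replicate 2 (0.0791), shKRT15 replicate 1 (0.057) or shKRT15 replicate 3 (0.074). KDM5A passed as lower without shNC replicate 3 (-0.28, adjusted p = 0.00429).

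The ubiquitin ligase genes linked to turnover of E2F proteins gave 3 higher and 2 not passing of 5, against 22.1% higher among all genes tested, and only 1 to 2 higher with a library left out. CCNF, the F-box protein that targets activator E2Fs, rose from 26.7 ± 0.907 to 44.0 ± 8.60 CPM (SD, n = 3; log2 fold change 0.72, adjusted p = 0.00014). SKP2 (0.28, adjusted p = 0.0307) and FZR1 (0.22, 0.044) were near the threshold, and CUL1 (0.15, 0.101) and SKP1 (-0.02, 0.858) did not pass. FZR1 stood at -0.01 with the GC and length trend removed, and lost its call on leaving out any library other than shKRT15 replicate 2 (adjusted p from 0.0525 to 0.197). SKP2 lost its call on leaving out shNC replicate 1 (0.0768), shNC replicate 3 (0.0728), shKRT15 replicate 2 (0.0815) or shKRT15 replicate 3 (0.0573). CUL1 passed as higher with total-count scaling (0.21, adjusted p = 0.0263) and with the GC and length trend removed (0.18, 0.0341).

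Targets of the E2F and DREAM pathways were higher almost throughout. All 33 G1-S target genes were called higher, with a median log2 fold change of 1.33, from 0.23 for RPA2 to 1.93 for TK1, against 22.1% of all genes tested. TK1, the thymidine kinase, rose from 17.9 ± 2.05 to 68.6 ± 4.46 CPM (SD, n = 3; adjusted p = 1.02e-10). MCM4, a subunit of the replicative helicase, rose by 1.5 ± 0.07 (SE; adjusted p = 3.53e-11) and MCM2, another, by 1.63 ± 0.09 (SE; 1.38e-10). TYMS, the thymidylate synthase, rose by 1.42 ± 0.07 (SE; adjusted p = 9.81e-11). Set side by side, E2F1 (1.33) stood at the median of these targets, E2F8 (1.48) a little above it and E2F2 (2.25) above the highest of them.

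Of 23 G2-M genes bound by DREAM, 22 were called higher and 1 did not pass, with a median log2 fold change of 1.00. KIF20A, a kinesin of cytokinesis, rose by 1.86 ± 0.08 (SE; adjusted p = 1.87e-11), PRC1, which bundles spindle microtubules, by 1.33 ± 0.07 (SE; 1.23e-10), BIRC5, which encodes survivin, by 1.45 ± 0.08 (SE; 1.37e-10) and CDC20, an activator of the anaphase-promoting complex, by 1.36 ± 0.08 (SE; 2.58e-10). The exception was CENPE, a kinetochore kinesin, at 39.2, 36.6 and 38.6 CPM in shNC and at 31.2, 39.4 and 20.2 CPM in shKRT15. Its shKRT15 libraries spread widely (log2 fold change -0.33, adjusted p = 0.151). The values of 31.2 and 20.2 CPM lay below every shNC value, and 39.4 CPM lay just above the highest. CENPE passed as lower without shKRT15 replicate 2 (-0.56, 0.00844) and with no filter on low counts (-0.33, 0.00927). The E2F motif defined above was present in 17 of the 29 G1-S genes with a promoter entry and in 2 of the 18 G2-M genes with one. Over all 27305 genes with a promoter entry, 3.99% held it in any window.

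Apoptosis genes linked to E2F1 were called about as often as other genes, 37.5% against 45.0% of all genes tested. Of 10 listed, 8 had a row in the count table, and all 8 had enough reads to test. Of these, 1 was higher, 2 were lower and 5 did not pass, with a median log2 fold change of -0.07. PMAIP1, which encodes NOXA, fell from 1170 ± 23.8 to 612 ± 62.4 CPM (SD, n = 3; log2 fold change -0.93, adjusted p = 3.31e-08). BCL2L11, which encodes BIM, rose from 8.01 ± 1.45 to 14.6 ± 0.741 CPM (SD, n = 3; 0.87, 6.81e-05). APAF1 (-0.23, adjusted p = 0.135) and BBC3 (0.10, 0.453) were among those that did not pass. APAF1 passed as lower without shNC replicate 3 (-0.37, adjusted p = 0.00262).

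**Figure D4:**
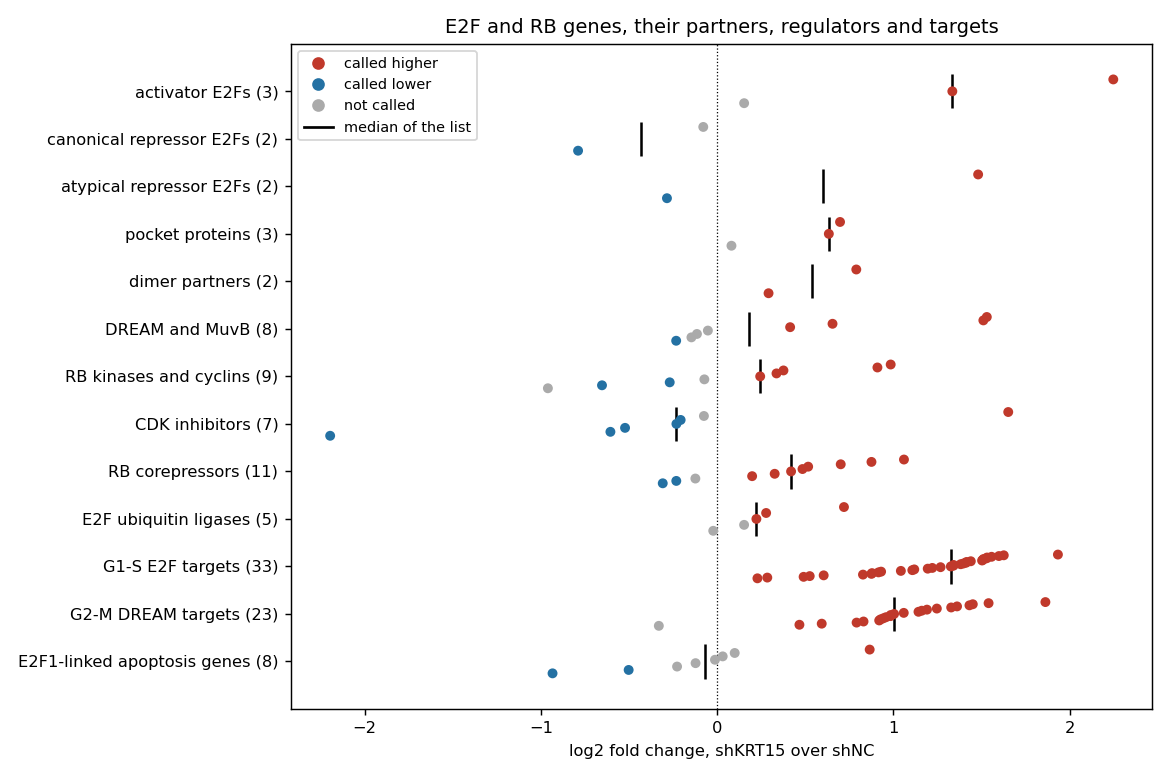
Log2 fold change (shKRT15 over shNC) of each gene, 1 point per gene, by list with the number tested in brackets. Red points were called higher, blue points lower and grey points not called, and the black bar is the list's median, 1.33 for the G1-S targets, 1.00 for the G2-M targets and -0.23 for the CDK inhibitors.

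The profile over the 6 libraries was also set beside that of 12420 genes whose mean reached 1 CPM, as the root mean square difference in centred log2(CPM + 0.5). Nearest to E2F2, the gene called higher with the largest change, were IGFBP5 (0.116), which encodes an IGF-binding protein, TK1 (0.117) and ESCO2 (0.121), which encodes a cohesin acetyltransferase of S phase. Their log2 fold changes were 3.14, 1.93 and 2.18, against 2.25 for E2F2. IGFBP5 stood at only 0.373 CPM in shNC and 3.31 CPM in shKRT15, where the added 0.5 shrinks differences. Among the 3 genes nearest to E2F5, the gene called lower with the largest change, were BTN2A2 (0.0254), a butyrophilin, and RAB21 (0.0289), an endosomal small GTPase. BTN2A2 and RAB21 had log2 fold changes of -0.81 and -0.79, side by side with -0.79 for E2F5. All of these genes were picked for a like profile over the same libraries, so like fold changes follow from the choice.

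Across 17 other settings of scaling, test, filter, block, gene set, GC correction and left-out library, 6 of the 7 called genes kept their call and direction in every one. Their log2 fold changes ranged from 1.21 to 1.39 for E2F1, 2.06 to 2.35 for E2F2, 1.36 to 1.58 for E2F8, 0.57 to 0.78 for RBL1, 0.63 to 0.76 for RBL2 and -0.82 to -0.59 for E2F5. E2F7 was the exception.

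**Figure D5:**
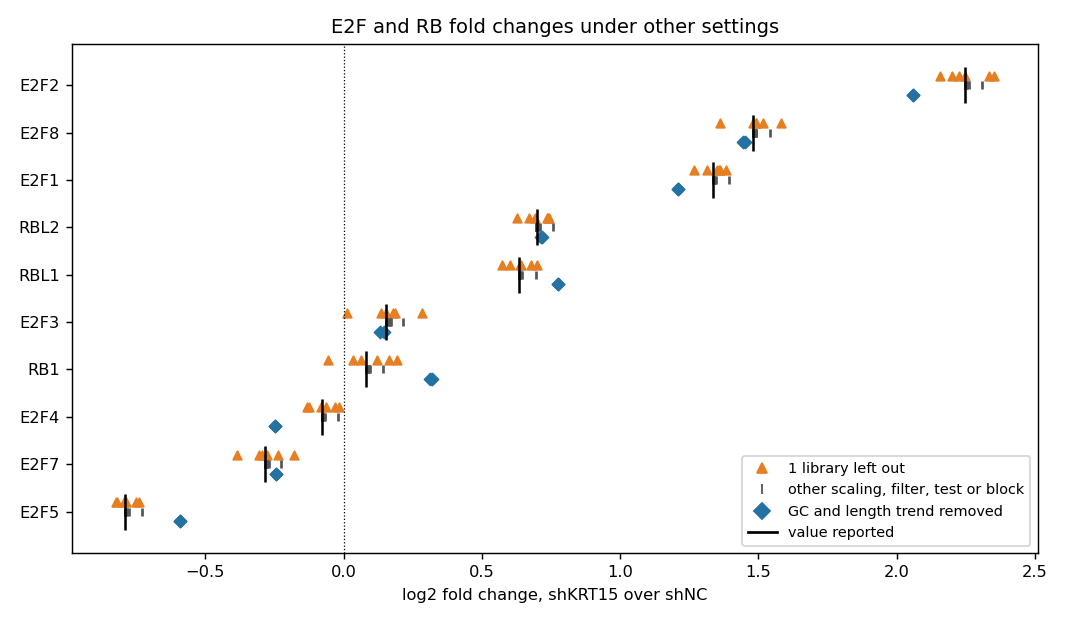
Log2 fold change of each gene under the settings tried, with the reported value as a black bar, 1 library left out as orange triangles, other scaling, filter, test or block as grey ticks, and the GC and length trend removed as blue diamonds. RB1 moves from 0.08 to 0.31 and E2F4 from -0.08 to -0.25 when that trend is removed, while E2F1, E2F2 and E2F8 stay above 1.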

How the data were processed

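RNA sequencing of 6 cultures gave 1 library each. TRIzol extraction, mRNA purification, fragmentation and Illumina library construction are given per the labels' protocols. The authors deposited whole-number read counts for each gene, not normalized. Per the submitters' processing notes the build was GRCh38. Aligner, counting tool, annotation and strandedness were not given in the sources used here, so reads of a gene and of a partner on the opposite strand cannot be separated.

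Libraries were grouped by title. Counts of all genes were fitted with edgeR 4.0.16 (R 4.3.3) by the robust quasi-likelihood test with TMM scaling and the group as the only term, after filterByExpr (minimum count 10, minimum total 15) had left 14356 genes. P-values were adjusted by Benjamini-Hochberg over all of them and called under 0.05. SE and 95% intervals come from the same test. RPKM is TMM-scaled CPM per kilobase of union exon length in GENCODE 29, which also gave GC content and length for 95.1% of tested genes. The fit was tested on simulated counts in which only a small part of the genes was changed. That test does not cover a difference as broad as the one between these groups. Alternatives were 3 other scalings, DESeq2 1.42.0, limma-voom 3.58.1, 2 other filters, the replicate block, protein-coding genes only, removal of each library's GC and length trend with and without that block, and each library left out in turn. The 2 length and list alternatives for the activator to repressor ratio were added after the data were seen.

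The 10 genes, the lists and the comparisons were chosen with earlier results of these data known. The naming rule took the 10 genes, KRT15, every DP partner, DREAM or MuvB subunit, cyclin, kinase and inhibitor listed, and from other lists the 4 smallest p-values and any member against the majority direction. It also took the 3 genes nearest in profile to the highest and lowest called genes. Some genes that the rule or the lists took are not reported here. E2F6, RPA2, AKTIP, RBIS and CUL1 and the other genes named as not passing were chosen after their values were seen.

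Libraries of a group differed by more than sampling noise (chi-square per degree of freedom of 6.18 or more), so each counted as 1 sample. Over all genes, deviations of same-numbered libraries from their group means correlated at r of 0.04, -0.0017 and 0.08, not over 0.1 in any pair, so the numbers were not taken to pair them, although long, AT-rich genes were low in replicate 3 of both groups.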

Additional observations from a re-analysis of the deposited data

How the results depend on the processing

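The cause of each change below was not tested. E2F1, E2F2, E2F5, E2F8, RBL1 and RBL2 kept their call in all 17 alternatives. The count of the 10 genes called lower, 2, was 1 with total-count scaling, 1 to 2 with a library left out and 3 with the GC and length trend removed, where E2F4 joined. With the replicate number as a block the counts stayed at 5 higher and 2 lower, and over all genes tested they were 3305 and 3428 against 3169 and 3295, and not every library correlated best with its own number. With the GC and length trend removed, with or without the replicate block, the count called higher was 6. The dimer partners called higher were 1, with and without that block. DREAM and MuvB genes called lower were 0 there and with total-count scaling, and 0 to 1 with a library left out. RB kinases and cyclins called higher were 3 with the trend removed. CDK inhibitors called lower were 3 with total-count scaling and 3 to 5 with a library left out. RB corepressors called lower were 1 with total-count scaling and with the trend removed, with or without the block, and 1 to 3 with a library left out. E2F ubiquitin ligases called higher were 1 to 2 with a library left out. G2-M genes called lower were 1 with no filter and 0 to 1 with a library left out.

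Log2 fold changes that turned sign were all small. With the trend removed, without and with the block, they were 0.048 and 0.054 for LIN54, -0.011 and -0.010 for FZR1, 0.011 and 0.032 for SKP1, and -0.16 and -0.16 for BBC3. With total-count scaling they were 0.0077 for LIN52 and 0.039 for SKP1. With a library left out they ranged from -0.054 to 0.19 for RB1, -0.11 to 0.0075 for LIN52, -0.23 to 0.032 for LIN54, -0.17 to 0.020 for CCNE1 and -0.076 to 0.090 for SKP1.

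The activator share of 30.2% in shNC and 46.4% in shKRT15 was 26.4% and 41.2% with the longest transcript as length, and 26.4% and 42.6% with E2F6 among the repressors. The ratio of 0.434 and 0.867 was then 0.359 and 0.700, or 0.359 and 0.743. With 57 to 87 reads a library in shNC, E2F2 and E2F8 are the least deeply counted of the 10 genes.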
